A study of Mus musculus with 12 samples.

Results

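The proteasome genes of mouse liver were followed across 4 diets. A gene was taken as a member when its symbol, found through the accession given for its probe, started with Psma, Psmb, Psmc, Psmd, Psme, Psmf or Psmg and a number. This rule found 50 of the 20886 genes named on the array, measured by 61 of its 39429 probes. Of these, 48 encode subunits, activators, inhibitors or assembly factors of the proteasome. The other two, Psmc3ip and Psme3ip1, matched by name but encode proteins that interact with a subunit or an activator. The 14 subunits of the 20S rings and 17 subunits of the 19S particle, 31 genes in all, are called the core subunits. Where a gene had several probes, which was so for 11 members, the brightest was read.

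The proteasome is the protease that degrades proteins tagged with ubiquitin. Its 20S core is a barrel of stacked rings, with outer alpha rings that gate the entrance and inner beta rings that hold the active sites. The 19S particle caps the barrel, where its ATPases unfold the substrate and its other subunits bind and remove ubiquitin. Under interferon, cells replace the catalytic subunits Psmb5, Psmb6 and Psmb7 by others to form the immunoproteasome, which makes peptides for antigen presentation. In the replacement Psmb8 takes the place of Psmb5, Psmb9 that of Psmb6, and Psmb10 that of Psmb7. In hepatocytes the constitutive form prevails, and immune cells in the liver express the immunoproteasome. When proteasome activity is short, the transcription factor NRF1, encoded by Nfe2l1, is known to induce the core genes together through antioxidant response elements in their promoters.

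Liver RNA came from 12 female C57BL/6N mice, 3 per diet, each on its own one-colour array after 6 months. All mice were bought at 6 weeks of age and were of this inbred strain. Ctrl mice ate a purified diet, abbreviated NFD in the labels, with corn starch and sucrose as its carbohydrates. RS mice ate the same with resveratrol, a plant stilbene, added. In DJ mice rice of the variety Dongjin took the place of starch and sucrose, and in DJ526 mice the rice was DJ526, a Dongjin line that carries the stilbene synthase gene of peanut and so makes resveratrol in the grain. DJ526 therefore differs from DJ by a transferred gene as well as by resveratrol, it is 1 rice line, and the resveratrol eaten is not given in the labels for either source, so that whether RS and DJ526 are matched in dose is not known here. Mice shared cages, and the paper describes whole cages as assigned at random to a diet, so that cage and diet cannot be told apart. Which mouse shared a cage with which is not given in the sources used here. A supplementary sample sheet of the study gives the arrays labelled RS to DJ and those labelled DJ to RS, and the labels were followed here; if the sheet were right, the values given below for RS and DJ would trade places, the difference of the resveratrol effects would keep its values, and rice against starch would become the contrast of other arrays.

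Signals are given as log2 of the processed intensity minus log2 of the 75th percentile of the same array, so that 0 is the level of that percentile and 1 unit is a factor of 2. Between 73.0% and 80.8% of the spots of an array lay well above background, the 75th percentile ranged from 953 to 1167 intensity units, and 0 spots were saturated. The arrays lay on 3 slides. Slide 1 held the 3 Ctrl arrays and DJ 1, slide 2 held DJ 2, DJ 3, RS 1 and RS 2, and slide 3 held RS 3 and the 3 DJ526 arrays. All 6 hepatocyte markers of the list used (Alb, Apoa1, Ttr, Cyp3a11, Serpina1a and Fgb) were well above background on every array.

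Promoters are shown for the catalytic subunits other than Psmb7, whose promoter is not printed here. The constitutive and immunoproteasome forms of these enzymes are controlled by different signals, and the arrays read both forms. Each line gives the 100 bases before the annotated start of the gene from RefSeq, build GRCm38.p6, 5′ to 3′ on the strand of the gene. Capitals mark TGACNNNGC, the core of the antioxidant response element, or CCAAT, a box found in many promoters, both searched on either strand.
Psmb5, chr14:54617996-54618095, minus strand: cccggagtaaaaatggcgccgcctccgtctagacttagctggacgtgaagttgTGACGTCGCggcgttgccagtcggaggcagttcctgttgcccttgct
Psmb6, chr11:70525257-70525356, plus strand: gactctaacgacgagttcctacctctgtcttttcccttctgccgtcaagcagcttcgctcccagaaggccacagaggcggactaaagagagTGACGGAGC
Psmb8, chr17:34198095-34198194, plus strand: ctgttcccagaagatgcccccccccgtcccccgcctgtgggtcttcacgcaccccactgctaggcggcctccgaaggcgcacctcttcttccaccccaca
Psmb9, chr17:34187331-34187430, minus strand: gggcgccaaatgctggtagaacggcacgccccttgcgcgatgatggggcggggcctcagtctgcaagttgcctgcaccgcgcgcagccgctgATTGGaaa
Psmb10, chr8:105938393-105938492, minus strand: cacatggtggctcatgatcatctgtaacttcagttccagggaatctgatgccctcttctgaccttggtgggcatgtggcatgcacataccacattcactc

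In Psmb5 and Psmb6 the antioxidant response core lay on the strand of the gene, starting 47 and 9 bases before the start. In Psmb9 the CCAAT box was on the other strand, starting 8 bases before the start. Over the wider window of 250 bases before to 50 bases after the start, 46 promoter windows of 42 member genes were compared with all 32851 windows in the table. TGACNNNGC was in 6 member windows, or 13.0%, those of Psmb5, Psmb6, Psmc6, Psmd9, Psmd12 and Psme4, and in 12.4% of all windows. CCAAT was in 34.8% of member windows and 37.4% of all. The core of the interferon-stimulated response element, GAAA followed after 2 bases of any kind by GAAA, was in 5 member windows (Psmb3, Psmd4, Psmd9, Psme1 and Psmg4), or 10.9%, against 3.44% of all. None of these 5 is an immunoproteasome catalytic subunit. These matches describe the letters in the windows only.

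The proteasome genes were read brightly and varied little between mice of a diet. On every array, 49 of the 50 members were well above background, against 69.2% of all probes. The exception was Psmb11, the beta subunit of the thymoproteasome, well above background on 1 array. In 43 members the mean signal exceeded the 75th percentile, as it did for 24.4% of all probes. A probe's brightness also depends on its sequence, so that members were not ranked by level.

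The pooled SD between mice of a diet had a median of 0.11 over the members (0.04 to 0.98), 0.26 over all probes and 0.13 over the 9617 probes with a mean above the 75th percentile, the fairer reference for bright genes. The steadiest member was Psmc1, a 19S ATPase, with an SD of 0.04. In the core the SD ran from 0.04 to 0.24 with a median of 0.10. The 3 immunoproteasome subunits had SDs of 0.14 for Psmb10, 0.21 for Psmb8 and 0.22 for Psmb9. The members with the widest spread were the dim Psmb11 at 0.98 and Psma8, the alpha subunit of the testis, at 0.66, followed by Psme3, the nuclear PA28 gamma activator, at 0.45.

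No member passed an adjusted p of 0.05 in any of the 7 comparisons (limma, Benjamini-Hochberg over all 39429 probes). The share of all probes that passed was 0% for RS against Ctrl, 0% for DJ against Ctrl, 0.00507% for DJ526 against Ctrl, 0.0101% for DJ526 against DJ, 0.00761% for DJ526 against RS, 0% for rice against starch and 0% for the difference of the resveratrol effects. The smallest adjusted p of a member was 0.185, for Psma5 in DJ526 against DJ. At an unadjusted p under 0.05 the comparisons had, in this order, 6, 1, 5, 10, 3, 1 and 4 of the 50 members. As shares of all probes the same threshold gave 6%, 5.22%, 10.8%, 9.81%, 5.5%, 4.57% and 6.09%.

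The intervals bound the size of the differences. In the 5 comparisons of 2 diets the 95% interval of a log2 fold change had a median half-width of 0.20 over the members. It was 0.23 over bright probes and 0.49 over all probes. Between 42 and 46 members had an interval wholly within 0.5 log2 units of 0. Among the 31 core subunits 29 to 31 did. The comparisons against Ctrl share the Ctrl mice, and those with DJ526 share the DJ526 mice. RS against Ctrl and DJ526 against RS share the RS mice, with opposite sign. DJ against Ctrl and DJ526 against DJ share the DJ mice in the same way. Their values are therefore given side by side and not as separate evidence.

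**Figure D1:**
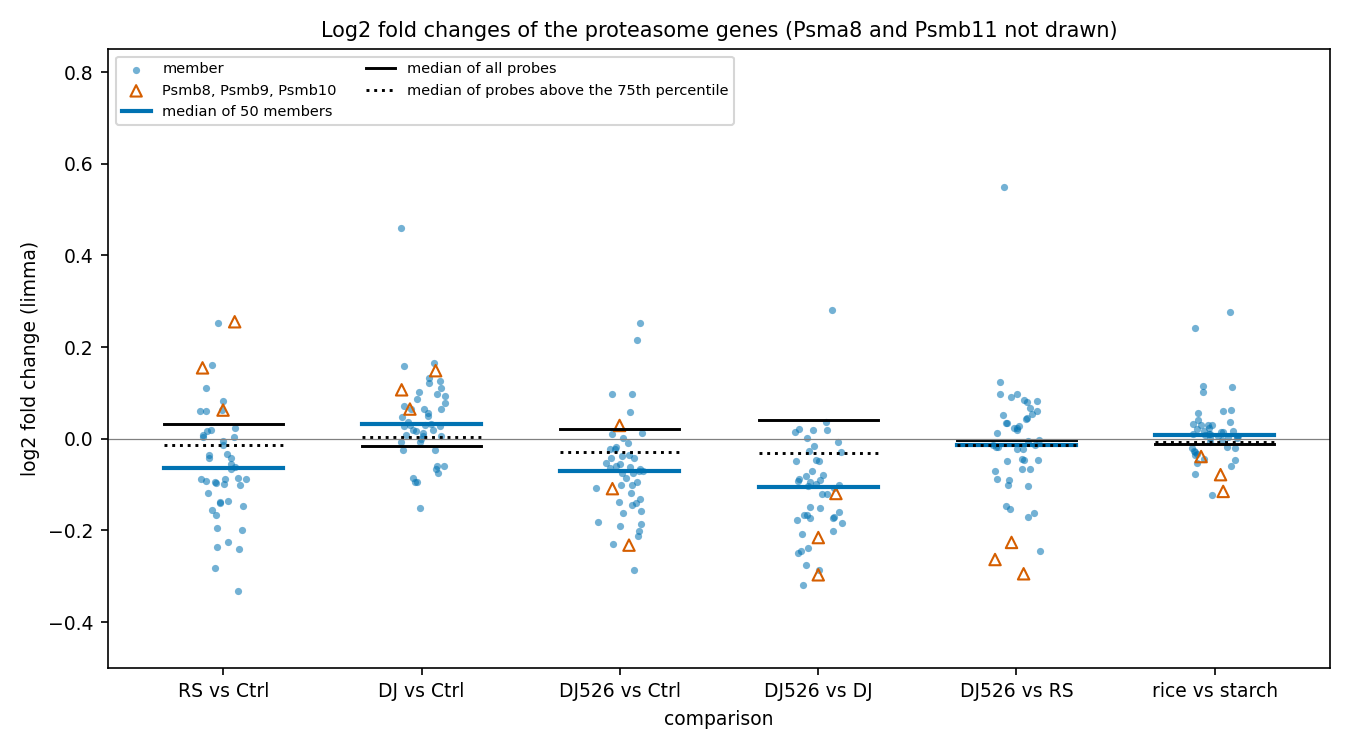
Log2 fold change (vertical axis) of each proteasome gene (dots; open triangles for Psmb8, Psmb9 and Psmb10) in 6 comparisons (horizontal axis), with the median of the 50 members (blue line), of all probes (black line) and of probes above the 75th percentile (dotted line). The member median lies lowest in DJ526 against DJ, at -0.11, and the dot far above the rest in DJ526 against RS is Psme4, at 0.55. Psma8 and Psmb11 are not drawn.

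In RS against Ctrl the median log2 fold change of the 50 members was -0.06, with 33 of 50 negative, against 0.03 over all probes and -0.01 over bright probes. In DJ against Ctrl it was 0.03, with 36 of 50 positive, against -0.02 and 0.00. In DJ526 against Ctrl it was -0.07, with 40 of 50 negative, against 0.02 and -0.03. In DJ526 against DJ it was -0.11, with 42 of 50 negative, against 0.04 and -0.03. DJ526 against RS and rice against starch had member medians of -0.01 and 0.01. Members are not independent replicates, since they are read on the same arrays, and these counts of signs are a description.

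Some members separated the 3 mice of one diet from the 3 of another without overlap. In RS against Ctrl 11 members lay lower in every RS mouse, where 3.99% of all probes and 7.45% of bright probes did, and 0 lay higher, where 6.25% of all probes and 5.59% of bright probes did. In DJ526 against Ctrl 12 lay lower, against 8.08% of all probes and 13.7% of bright probes, and 0 higher, against 12.5% and 7.03%. In DJ526 against DJ 9 lay lower, against 6.29% and 11%, and 0 higher, against 12.1% and 5.15%. In DJ526 against RS 4 lay lower, against 6.15%, and 2 higher, against 4.99%. DJ against Ctrl had 2 lower, against 4.87%, and 0 higher, against 4.49%.

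The core subunits of a mouse tended to lie on one side of their means together, also where mice of one diet differed. In the mouse DJ526 1 all 31 core subunits lay below their own mean over the 12 mice, with a median deviation of -0.15, while in DJ526 2 of the same diet 20 of 31 lay above it, with a median of 0.05. In RS 2, 1 of 31 lay above (median -0.14), and in RS 1, 18 of 31 (median 0.01). In DJ 2 and DJ 3, 30 of 31 lay above (medians 0.11 and 0.16), and in DJ 1, 10 of 31 (median -0.05). The Ctrl mice were the closest to each other, with medians of 0.04, 0.00 and 0.04. Bright probes as a whole deviated by -0.05 to 0.03 per array. The gaps between mice of one diet, from -0.05 to 0.16 in DJ and from -0.15 to 0.05 in DJ526, were wider than the core median of -0.12 between these diets. A range of single mice and a difference of group means are unlike measures. In DJ the gap also falls between slides, with DJ 1 on slide 1 and DJ 2 and DJ 3 on slide 2.

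**Figure D2:**
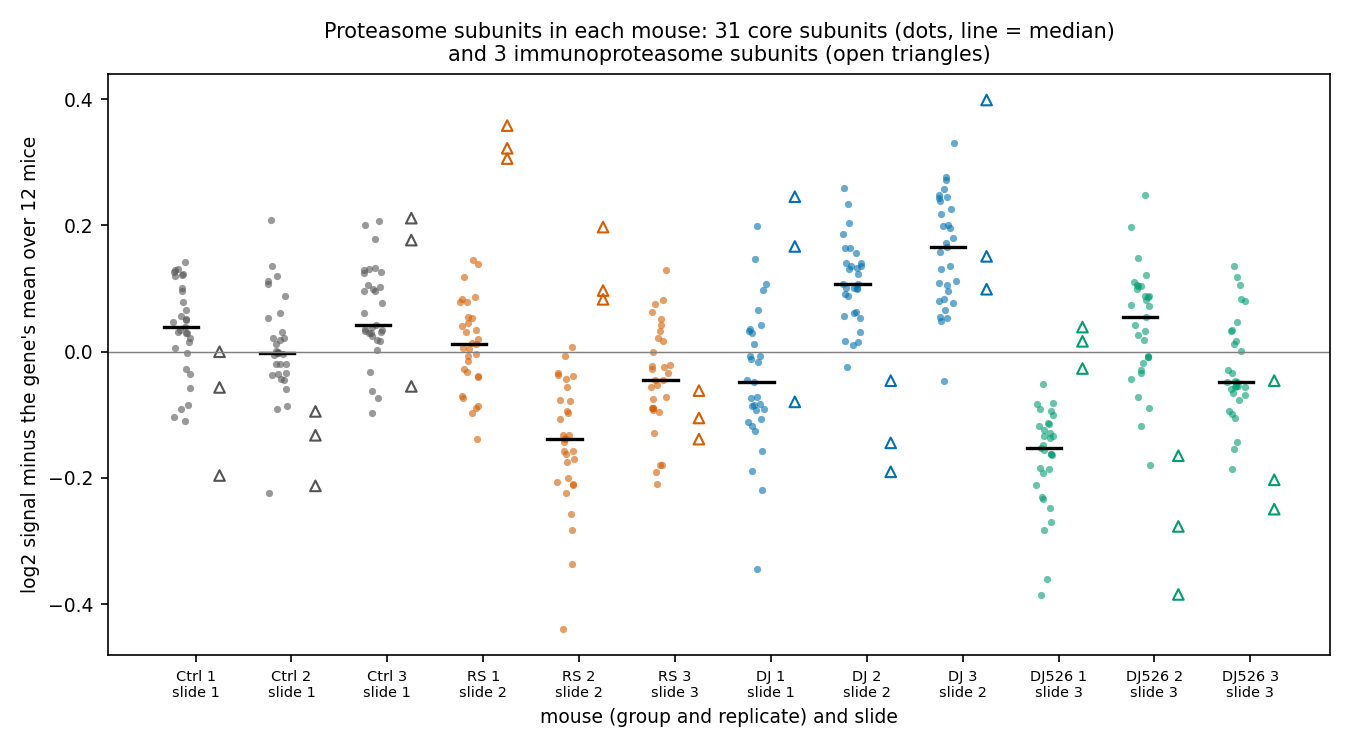
Deviation of each core subunit (dots) and of Psmb8, Psmb9 and Psmb10 (open triangles) from its own mean over the 12 mice, in log2 units (vertical axis), for each mouse and its slide (horizontal axis); black lines are medians over the 31 core subunits. The core lies low in DJ526 1 and RS 2 (medians -0.15 and -0.14) and high in DJ 2 and DJ 3 (0.11 and 0.16), while the triangles stand apart from the dots in RS 1.

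The alpha ring held the member with the smallest p over the 7 comparisons. Psma5, an alpha ring subunit, read 3.62, 3.70 and 3.71 in the Ctrl mice, 3.73, 3.67 and 3.65 in RS, 3.69, 3.86 and 3.95 in DJ, and 3.52, 3.50 and 3.52 in DJ526. Every DJ526 mouse lay below all other mice, and the 3 DJ526 mice agreed within an SD of 0.01. DJ526 against DJ was -0.32 (95% interval -0.47 to -0.17, unadjusted p = 0.000792, adjusted p = 0.185). DJ526 against Ctrl was -0.16 (adjusted p = 0.444) and against RS -0.17 (adjusted p = 0.834). Psma5 was also the first of the alpha subunits by p in DJ against Ctrl, at 0.16 (adjusted p = 0.953), where DJ 1 overlapped the Ctrl mice. The difference of the resveratrol effects, DJ526 minus DJ less RS minus Ctrl, was -0.33 for Psma5 (95% interval -0.55 to -0.11, adjusted p = 0.632).

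Psma7, another alpha subunit, read 4.72, 4.79 and 4.93 in DJ and 4.52, 4.60 and 4.59 in DJ526. The groups did not overlap, and the difference was -0.24 ± 0.07 (SE, adjusted p = 0.318). The Ctrl mice, at 4.80, 4.69 and 4.69, and the RS mice, at 4.68, 4.61 and 4.61, also lay above all DJ526 mice. Psma4 was 3.19 ± 0.02 (SD, n = 3) in Ctrl and 3.32 ± 0.10 in DJ, a difference of 0.13 (adjusted p = 0.991), and its second probe gave 0.10. All 7 alpha subunits had a negative log2 fold change in DJ526 against DJ, with a median of -0.10. There 2 of them, Psma5 and Psma7, had an unadjusted p under 0.05, as did 9.81% of all probes. In RS against Ctrl the alpha ring was split, with 3 positive and 4 negative and a median of 0.00.

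**Figure D3:**
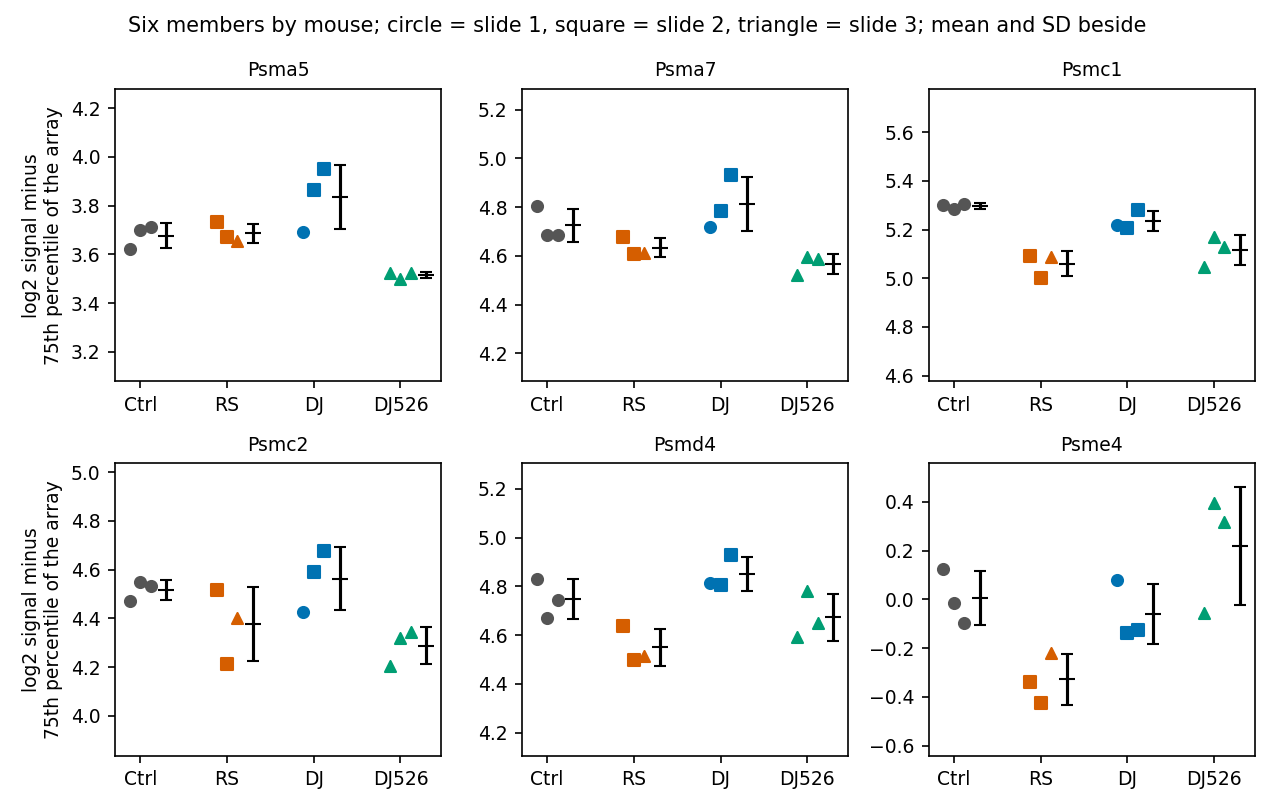
Log2 signal above the array's 75th percentile (vertical axes) of Psma5, Psma7, Psmc1, Psmc2, Psmd4 and Psme4 in each of the 12 mice by diet (horizontal axes), with the slide as the marker and the mean and SD of 3 mice as the bar. Psma5 is lowest in the 3 DJ526 mice, Psmc1 is lowest in RS with a mean of 5.06, and Psme4 is lowest in RS with a mean of -0.33.

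Of the catalytic subunits of the beta ring, Psmb5, the chymotrypsin-like enzyme, read 6.08, 6.11 and 6.15 in Ctrl, 6.02, 5.92 and 6.00 in RS, 6.08, 6.14 and 6.22 in DJ, and 5.91, 6.02 and 6.00 in DJ526. Both groups fed resveratrol lay below both groups without it in every mouse. RS against Ctrl was -0.14 (adjusted p = 0.832) and DJ526 against DJ -0.17 (95% interval -0.31 to -0.04, adjusted p = 0.436). The second Psmb5 probe gave -0.13 and -0.13 for the same comparisons. The difference between these 2 effects was -0.04 with a 95% interval of -0.23 to 0.16, which leaves room for effects of unequal size.

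Psmb6, the caspase-like subunit, read 5.86, 5.80 and 5.91 in Ctrl and 5.65, 5.64 and 5.56 in RS, without overlap. The difference of -0.24 ± 0.07 (SE) had an adjusted p of 0.564. The DJ mice, at 5.88, 5.71 and 5.69, and the DJ526 mice, at 5.69, 5.76 and 5.69, lay above all RS mice, and the DJ mice overlapped Ctrl. Psmb7, the trypsin-like subunit, averaged 2.67 ± 0.07 (SD, n = 3) for Ctrl, 2.61 ± 0.03 for RS, 2.64 ± 0.12 for DJ and 2.66 ± 0.17 for DJ526, and its diets overlapped. With the slide as a block the Psmb6 difference of RS from Ctrl came to -0.03. RS and Ctrl share no slide, so that this value is linked through DJ 1 and slide 2.

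The immunoproteasome subunits had the sign of the core in some comparisons and the opposite sign in others, and none passed the test. Psmb8 read 2.04, 2.14 and 2.41 in Ctrl, 2.59, 2.33 and 2.13 in RS, 2.48, 2.04 and 2.38 in DJ, and 2.27, 1.95 and 2.03 in DJ526. Psmb9 read 2.30, 2.16 and 2.51 in Ctrl, 2.62, 2.38 and 2.16 in RS, 2.22, 2.25 and 2.70 in DJ, and 2.31, 1.91 and 2.05 in DJ526. Psmb10 read 4.91, 4.76 and 4.92 in Ctrl, 5.28, 5.17 and 4.91 in RS, 5.14, 4.83 and 5.07 in DJ, and 4.94, 4.81 and 4.93 in DJ526. The diets overlapped in all 3 genes, and RS 1 was the highest mouse for Psmb8 and Psmb10.

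In RS against Ctrl the 3 subunits had log2 fold changes of 0.15 for Psmb8, 0.06 for Psmb9 and 0.26 for Psmb10 (95% interval 0.02 to 0.49, adjusted p = 0.802), whereas 26 of the 31 core subunits were negative. With the slide as a block they were 0.53, -0.08 and 0.55, values linked through DJ 1 and slide 2 since RS and Ctrl share no slide. In DJ526 against RS they were -0.26, -0.29 and -0.23, with adjusted p-values of 0.931 to 0.979, and the core median was 0.02. With the slide as a block these came to -0.04, -0.07 and -0.02, the slide 3 values, in which RS 3 is the only RS mouse. In DJ against Ctrl all 3 were positive (median 0.11) and in DJ526 against DJ all 3 negative (-0.22 for Psmb8, -0.30 for Psmb9 and -0.12 for Psmb10), the signs of the core in both. Both comparisons use the DJ mice, with opposite sign. With the block the DJ526 against DJ values were 0.21, -0.04 and 0.26, linked through RS 3 and slide 2 since these diets share no slide. The difference of the resveratrol effects was -0.37 for Psmb8, -0.36 for Psmb9 and -0.37 for Psmb10 (95% interval for Psmb10 -0.71 to -0.04, adjusted p = 0.779). With the block it was -0.33, 0.04 and -0.29, where DJ 1 and RS 3 are the only DJ and RS mice that enter.

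Within each mouse, the log2 signal of the immunoproteasome subunit was set against that of the subunit it replaces, which compares change and not amount. From Ctrl to RS the difference shifted by 0.29 for Psmb8 over Psmb5, 0.30 for Psmb9 over Psmb6 and 0.31 for Psmb10 over Psmb7. The exact two-sided permutation p-values were 0.2, 0.1 and 0.1, where 0.1 is the smallest that 3 mice against 3 can give, and 0.429 each after adjustment over 15 tests. By gene, Psmb8, Psmb9 and Psmb10 changed by 0.15, 0.06 and 0.26 from Ctrl to RS. Psmb5, Psmb6 and Psmb7 changed by -0.14, -0.24 and -0.05, so that the Psmb9 shift lay mostly in Psmb6. With the slide as a block the values were 0.53, -0.08 and 0.55, and -0.24, -0.03 and -0.23. From RS to DJ526 the shifts were -0.26, -0.39 and -0.27, each with an exact p of 0.2 and an adjusted p of 0.429. The same RS mice enter these shifts and those from Ctrl to RS, with opposite sign. Against RS 3 on slide 3, DJ526 differed by -0.04, -0.07 and -0.02 for Psmb8, Psmb9 and Psmb10. Psmb5, Psmb6 and Psmb7 differed there by -0.02, 0.16 and 0.06. In the comparisons of DJ and of DJ526 with Ctrl and of DJ526 with DJ the adjusted exact p-values were 0.429 to 1.

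**Figure D4:**
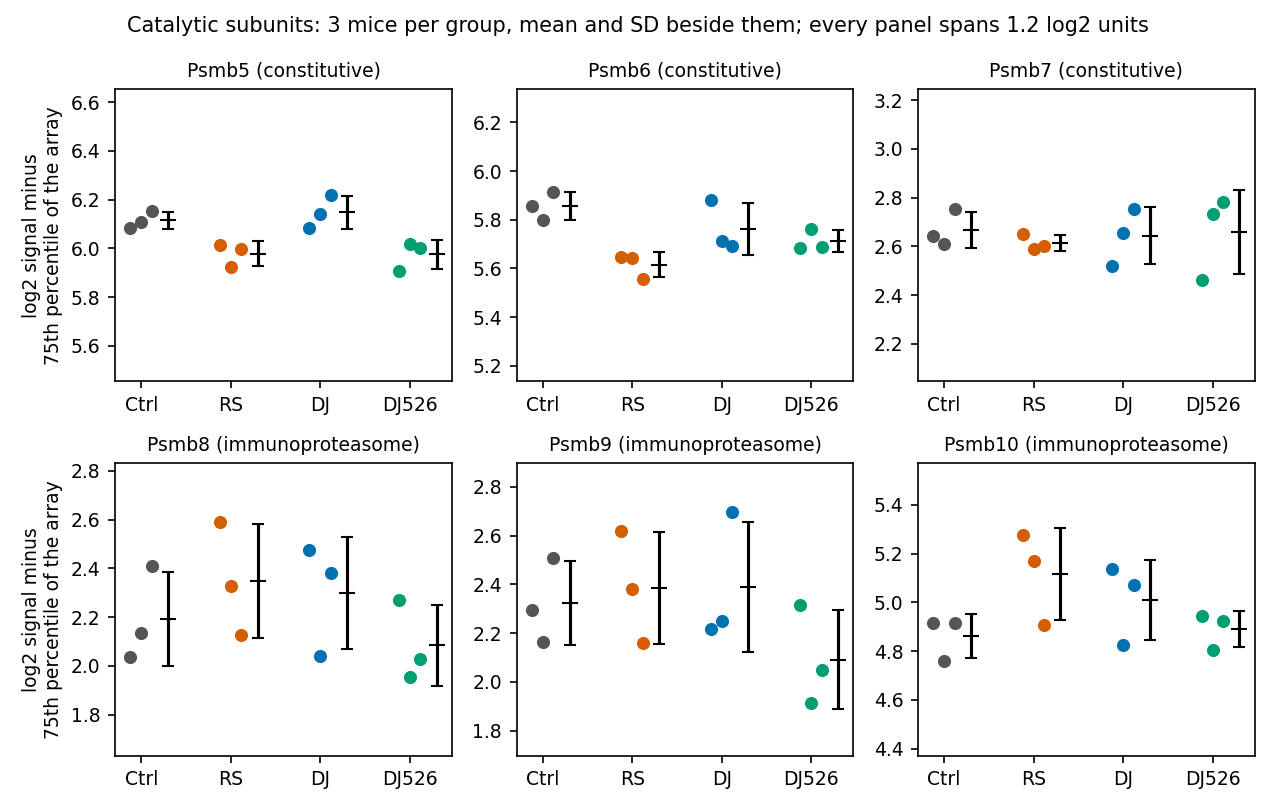
Log2 signal above the array's 75th percentile (vertical axes, 1.2 units in every panel) of the constitutive catalytic subunits (top) and the immunoproteasome subunits that replace them (bottom), by diet (horizontal axes), with 1 dot per mouse and the mean and SD of 3 mice as the bar. Psmb5 and Psmb6 show narrow groups, and the immunoproteasome subunits show SDs up to 0.27 and overlap between diets.

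PA28 alpha and beta, encoded by Psme1 and Psme2, form the interferon-inducible activator that opens the 20S gate. Psme1 averaged 3.78 ± 0.12 (SD, n = 3) for Ctrl, 3.86 ± 0.07 for RS, 3.81 ± 0.13 for DJ and 3.83 ± 0.07 for DJ526. Psme2 was 5.51 ± 0.03, 5.57 ± 0.05, 5.62 ± 0.15 and 5.52 ± 0.05 in the same order. DJ against Ctrl was 0.11 for Psme2 (adjusted p = 0.998), and came to 0.03 without DJ 1, the mouse at 5.79. Its second probe disagreed in DJ526 against Ctrl, with -0.20 where the brighter gave 0.01.

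The 9 genes listed as induced by interferon along with the immunoproteasome were all measured, and 0 passed the adjusted threshold in any comparison. In RS against Ctrl 8 of 9 were positive with a median of 0.10. At an unadjusted p under 0.05 there were 2 of the 9, and 6% of all probes. The 2 genes were Tapbp, a chaperone of peptide loading, at 0.26 (adjusted p = 0.731), and B2m, the light chain of MHC class I, at 0.15 (adjusted p = 0.783). In DJ526 against RS B2m was -0.14 (adjusted p = 0.893) and Tap2, a peptide transporter, -0.23 (adjusted p = 0.967). The difference of the resveratrol effects was -0.22 for B2m and -0.35 for Tapbp (adjusted p = 0.738 and 0.752), with 8 of 9 negative. In DJ against Ctrl Tapbp and Nlrc5, the MHC class I transactivator, were at 0.18 and 0.25, in DJ526 against Ctrl Tap2 and Nlrc5 at -0.23 and 0.27, in DJ526 against DJ Tap2 and Gbp2, a GTPase, at -0.26 and -0.35, and in rice against starch Nlrc5 and Tap2 at 0.16 and -0.10.

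Immune cells carry the immunoproteasome, so their markers were read beside it. In whole liver, fewer cells of a type and less RNA per cell cannot be told apart. The summed level of 4 markers of dendritic cells and antigen presentation (Itgax, H2-Aa, H2-Ab1 and Cd74) ran from 3.98 to 4.59 in Ctrl, 4.03 to 5.57 in RS, 4.35 to 5.59 in DJ and 4.37 to 5.44 in DJ526. That of 9 lymphocyte markers ran from 4.44 to 5.17, 4.86 to 5.45, 5.21 to 5.32 and 5.14 to 5.34 in the same order. The median log2 fold change of the lymphocyte list over Ctrl was 0.47 for RS, 0.48 for DJ and 0.49 for DJ526. All 13 genes of both lists were well above background on every array except Cd8a, which was on 11, and no gene of either passed the adjusted threshold. The 6 markers of Kupffer cells and macrophages that were measured, of 7 listed, had the opposite sign, with 6 of 6 negative in RS against Ctrl (median -0.30), 6 of 6 in DJ against Ctrl (median -0.47) and 5 of 6 in DJ526 against Ctrl (median -0.18). Their summed level ran from 6.20 to 7.15 in Ctrl, 5.93 to 6.49 in RS, 5.90 to 6.49 in DJ and 5.94 to 6.49 in DJ526, and none passed the adjusted threshold. The part of these 3 lists in the immunoproteasome values was not tested.

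The 19S ATPases, which unfold substrates, held the member with the smallest p in RS against Ctrl. Psmc1 read 5.30, 5.28 and 5.31 in Ctrl, 5.09, 5.002 and 5.09 in RS, 5.22, 5.21 and 5.28 in DJ, and 5.05, 5.17 and 5.13 in DJ526. Every RS and DJ526 mouse lay below every Ctrl and DJ mouse. RS against Ctrl was -0.24 (95% interval -0.36 to -0.11, unadjusted p = 0.00165, adjusted p = 0.474) and DJ526 against Ctrl -0.18 (adjusted p = 0.290). The second Psmc1 probe gave -0.07 for RS and -0.17 for DJ526, so that the size in RS depended on the probe.

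Psmc2, another ATPase, read 4.47, 4.55 and 4.53 in Ctrl, 4.52, 4.21 and 4.40 in RS, 4.42, 4.59 and 4.67 in DJ, and 4.20, 4.32 and 4.34 in DJ526. The DJ526 mice lay below all Ctrl and DJ mice. DJ526 against DJ was -0.28 (adjusted p = 0.394) and against Ctrl -0.23 (adjusted p = 0.397), and the second probe gave -0.35 and -0.22. All 6 ATPases were negative in RS against Ctrl (median -0.12) and in DJ526 against DJ (median -0.16).

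The 11 other 19S subunits, which bind and process ubiquitin chains and hold the lid together, had the signs of the ATPases. All 11 were negative in RS against Ctrl (median -0.10), in DJ526 against Ctrl (median -0.08) and in DJ526 against DJ (median -0.16). Psmd4, a ubiquitin receptor, read 4.83, 4.67 and 4.74 in Ctrl, 4.64, 4.50 and 4.51 in RS, 4.81, 4.81 and 4.93 in DJ, and 4.59, 4.78 and 4.65 in DJ526. The RS mice lay below all Ctrl and DJ mice. RS against Ctrl was -0.20 (adjusted p = 0.739), DJ526 against DJ -0.18 (adjusted p = 0.482) and rice against starch 0.11 (adjusted p = 0.975). In RS against Ctrl 2 of the 11 had an unadjusted p under 0.05, and in DJ526 against DJ 3 did. Over all probes the shares were 6% and 9.81%.

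**Figure D5:**
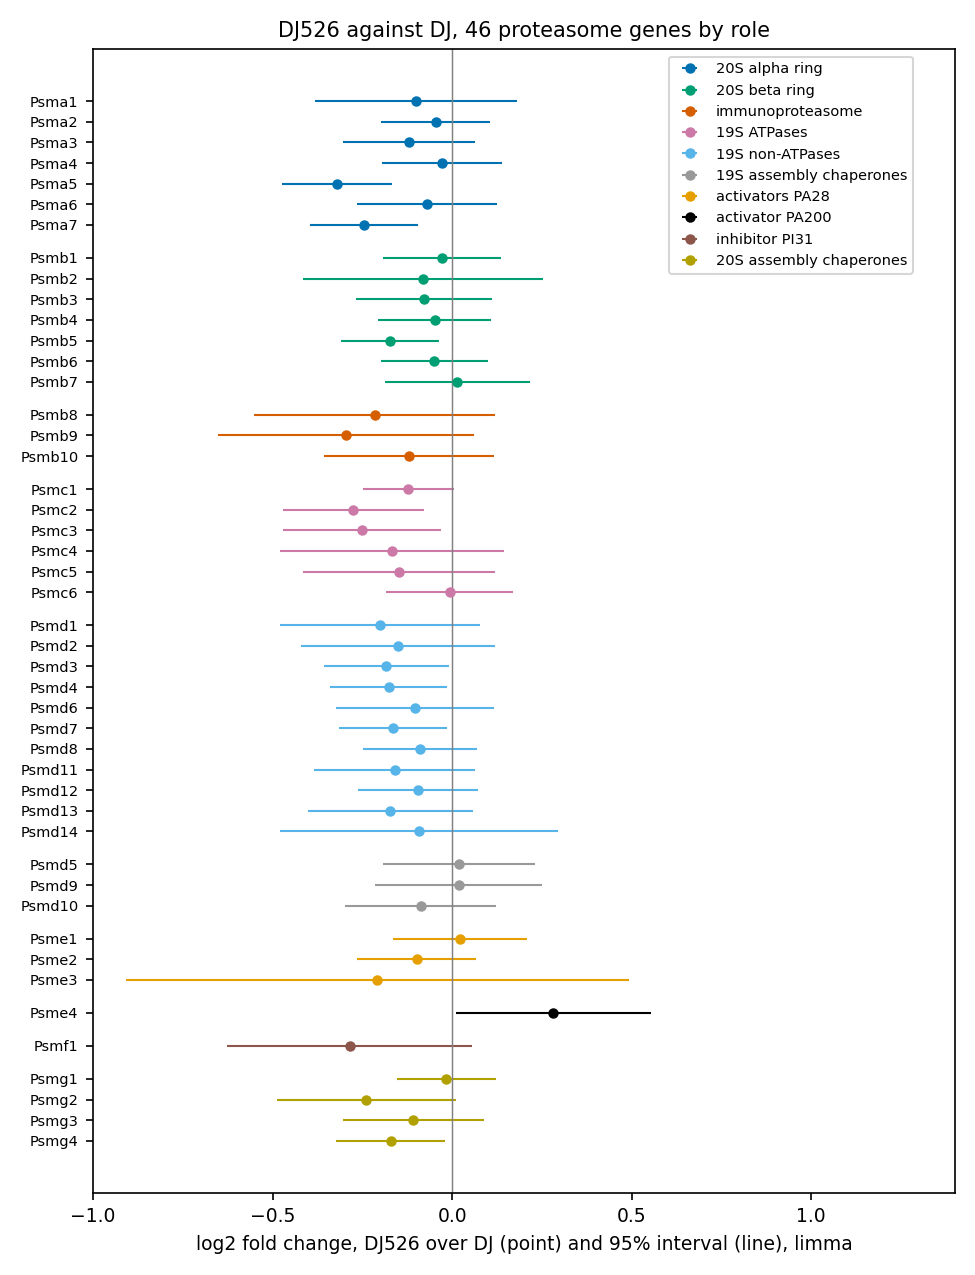
Log2 fold change of DJ526 over DJ (horizontal axis; point and 95% interval, limma) for 46 proteasome genes (vertical axis) ordered and coloured by role. All but 1 of the core subunits lie below 0, Psma5 lies lowest of them at -0.32, and Psme4 lies highest at 0.28.

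In DJ526 against DJ 30 of 31 core subunits were negative, with a median of -0.12, the exception being Psmb7 at 0.01. Of bright probes 59.0% were negative. At an unadjusted p under 0.05 there were 8 of the 31, and 9.81% of all probes. The member median of -0.11 came to -0.06 without DJ526 1 and to -0.16 without DJ 1. The number of members at an unadjusted p under 0.05 went from 10 to 4 without DJ 3 and to 15 without DJ 1. The shares of all probes in these fits are not given. Hepatocyte markers lay lower as well, with a median of -0.23 over the 6 genes, all negative, among them Alb at -0.29 (adjusted p = 0.230). The summed level of this list was 11.05 to 11.14 in DJ and 10.80 to 10.87 in DJ526, without overlap. Its part in the core values was not tested.

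The regulators that attach outside the core had mixed signs. Psme4 encodes PA200, a nuclear activator that acts without ubiquitin. It read 0.12, -0.01 and -0.10 in Ctrl, -0.34, -0.43 and -0.22 in RS, 0.08, -0.14 and -0.13 in DJ, and -0.06, 0.40 and 0.32 in DJ526. All RS mice lay below all others, and 2 of the DJ526 mice lay above all others. DJ526 against RS was 0.55 (95% interval 0.28 to 0.82, unadjusted p = 0.000985, adjusted p = 0.294). RS against Ctrl was -0.33 (adjusted p = 0.739) and rice against starch 0.24 (adjusted p = 0.975). The difference of the resveratrol effects was 0.61 (95% interval 0.23 to 1.00, adjusted p = 0.602). The second Psme4 probe had the same sign at smaller size, with 0.30 for DJ526 against RS, -0.11 for RS against Ctrl and 0.23 for the difference of effects.

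Psme3 encodes PA28 gamma, the nuclear relative of Psme1 and Psme2. It averaged 3.39 ± 0.39 (SD, n = 3) for Ctrl, 3.55 ± 0.63 for RS, 3.85 ± 0.32 for DJ and 3.65 ± 0.40 for DJ526, with all diets overlapping. Psmf1 encodes PI31, first described as an inhibitor of the 20S core. It was -0.65 ± 0.16, -0.69 ± 0.13, -0.65 ± 0.34 and -0.94 ± 0.10 in the order Ctrl, RS, DJ and DJ526, and DJ526 against DJ was -0.29 (95% interval -0.63 to 0.06).

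Assembly chaperones bring the rings and the 19S base together and leave the finished particle. Of the 4 that build the 20S core, Psmg4 read 0.63, 0.59 and 0.50 in RS, 0.56, 0.51 and 0.67 in DJ, and 0.41, 0.39 and 0.44 in DJ526. The DJ526 mice lay below all others, and DJ526 against RS was -0.16 (adjusted p = 0.861). Psmg1 averaged 3.47 ± 0.03 for Ctrl, 3.44 ± 0.08 for RS, 3.39 ± 0.06 for DJ and 3.37 ± 0.06 for DJ526, and rice against starch was -0.08 (adjusted p = 0.975). All 4 were negative in DJ526 against DJ, with a median of -0.14. The 3 chaperones of the 19S base, Psmd5, Psmd9 and Psmd10, had a median of 0.02 there.

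The tissue-specific subunits were dim. Psmb11, of the thymus, lay between -9.32 and -5.95 and was not well above background on 11 of the 12 arrays, so that its values carry no comparison. Psma8, of the testis, was well above background on all arrays at -6.78 to -4.83, with an SD of 1.01 in Ctrl alone. The non-subunits Psmc3ip and Psme3ip1 had log2 fold changes of 0.25 and 0.02 in RS against Ctrl and of 0.00 and 0.04 in DJ526 against DJ.

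The slides touch several of these values. Slide 2 alone held DJ and RS together, and there the mean of the 2 DJ mice exceeded that of the 2 RS mice in all 31 core subunits, with a median of 0.21, against 0.01 over all probes and 0.03 over bright probes. Of the 9617 bright probes, 5571 had a higher mean in DJ on this slide. Both DJ mice lay above both RS mice in 29 of the 31, the exceptions being Psmc5 and Psmd13. The share of all probes with such a separation is not given, so that this count is not set against the whole array. The 3 immunoproteasome subunits lay lower in DJ there, with a median of -0.25. On slide 1 the single DJ mouse was below the mean of the 3 Ctrl mice in 23 of 31 core subunits, with a median of -0.08, the opposite sign to the full comparison. On slide 3 the 3 DJ526 mice against the single RS mouse had a core median of -0.02 and a median of -0.04 over the 3 immunoproteasome subunits. The slide block gives DJ against Ctrl and DJ526 against RS these slide 1 and slide 3 values again. RS against Ctrl, DJ526 against Ctrl and DJ526 against DJ have no slide in common. Within slide 3 Psme4 was 0.44 higher in DJ526 than in the RS mouse, and Psma5 was -0.14.

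Other genes of the pathway were read from 3 lists, and 0 of them passed the adjusted threshold in any comparison. Of 17 partners of the proteasome (ubiquitin receptors, shuttle factors, deubiquitinases and the chaperone Pomp) 16 were measured, with 12 of 16 negative in RS against Ctrl (median -0.13). In that comparison Rad23b, a shuttle factor, was at -0.26 and Ubqln1, another, at -0.31 (adjusted p = 0.686 for both). There 3 of the 16 had an unadjusted p under 0.05, as did 6% of all probes. In DJ526 against DJ Pomp, which matures the 20S core, was at -0.22 (adjusted p = 0.480) and Sem1, a small 19S subunit, at -0.10. Adrm1, a ubiquitin receptor, was at 0.21 in DJ against Ctrl and 0.14 in rice against starch, and Txnl1, a 19S-bound redox protein, at -0.31 and -0.18. In DJ526 against Ctrl Sem1 and Rad23b were at -0.10 and -0.15, in DJ526 against RS Uchl5, a deubiquitinase, and Ubqln1 at 0.19 and 0.21, and in the difference of effects Ubqln4 and Uchl5 at 0.43 and 0.28.

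Among the genes for ubiquitin and its activating enzyme, Ubb, a polyubiquitin gene, was at -0.19 for RS, DJ and DJ526 alike, each over Ctrl, with adjusted p-values of 0.825, 0.942 and 0.441. Rps27a, a fusion of ubiquitin with a ribosomal protein, was at -0.20 in DJ526 against Ctrl (adjusted p = 0.377). These 3 comparisons share the Ctrl mice. Rps27a was at -0.09 in DJ526 against DJ. In DJ526 against RS Uba1, the activating enzyme, and Rps27a were at 0.15 and -0.10, in rice against starch Rps27a and Uba1 at -0.10 and 0.11, and in the difference of effects Ubb at 0.19.

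Of 7 regulators of proteasome genes, none had an unadjusted p under 0.05 in any comparison. Nfe2l1, which encodes NRF1, was at -0.10 in RS against Ctrl, and Nfe2l2, which encodes NRF2, at -0.10 in RS, -0.16 in DJ and -0.14 in DJ526. Bach1, a repressor at antioxidant response elements, was at -0.25 in DJ against Ctrl, 0.37 in DJ526 against DJ (adjusted p = 0.524), 0.19 in DJ526 against RS and 0.44 in the difference of effects. Among its small Maf partners, Mafk was at 0.08 in DJ526 against Ctrl and 0.09 against RS, and Mafg at -0.18 in DJ526 against DJ and -0.20 in the difference of effects. In rice against starch Nfe2l2 and Ngly1, the glycanase that activates NRF1, were at -0.11 and -0.07.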

How the data were processed

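The authors deposited, per array, the spot intensity as Feature Extraction (version 11.5.1.1, per the file headers) writes it on a linear scale: median pixel, local background and a background-subtracted processed signal, with the probe design annotated on mm9. A second deposited table holds intensity after global normalization, which is the processed signal times 1 factor per array (99.9% of probes). The log2 values were computed here from these intensities.

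Spots of a probe were averaged without outlier flags and control spots, put on the log2 scale and scaled by the 75th percentile of the array. At least 1 array gave no value for 68 probes. RefSeq accessions named 27508 of 39429 probes. limma (version 3.58.1, R 4.3.3) was fitted on all 12 arrays with 1 mean per diet and a prior that follows the mean signal. The Benjamini-Hochberg adjustment ran over all probes. Rice against starch is the mean of DJ and DJ526 less that of Ctrl and RS. The immunoproteasome pairs were tested by exact permutation over arrays with numpy (version 2.4.6). Sums of marker lists are log2 of the summed linear signals. limma was tested on simulated data with changed probes.

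Named members were the catalytic subunits, Psme1 and Psme2, dim members and the 3 of smallest p per comparison, with the 2 of smallest p of each other list, except for some genes that are not reported here. Psme3, Psmf1, Psma8, Psmc3ip and Psme3ip1, among others outside that rule, complete the account of the roles. Members and lists were chosen with earlier results of these data known. The number of arrays limits the precision. Alternatives were another scaling (the median, quantile normalization, the deposited table), normexp background correction, a filter on dim probes, no trend in the prior, the slide or the replicate number as a block, only the diets compared, the methods' t-test and Z ratio, the mean of all probes of a gene, and leaving out each array. SAM, which the methods also name, was not run.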

Additional observations from a re-analysis of the deposited data

How the results depend on the processing

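The number of members at an adjusted p under 0.05 was 0 in all 7 comparisons under every alternative but 1. The exception was the methods' Z ratio beyond 1.5 with an unadjusted p, which called 1 of the 50 members, Psme4, in DJ526 against RS. The same rule called 805 of all 39429 probes in that comparison. The member medians moved with 2 choices. Scaled by the median of the array they were -0.14 for RS against Ctrl, -0.14 for DJ526 against Ctrl and -0.19 for DJ526 against DJ, while the median of all probes moved from 0.03 to -0.04 and from 0.04 to -0.04 in the first and last. With the slide as a block they were -0.22 for RS against Ctrl, -0.075 for DJ against Ctrl, -0.24 for DJ526 against Ctrl and -0.17 for DJ526 against DJ. Rice against starch came to -0.039 (34 of 50 negative) and the difference of the resveratrol effects to 0.038. The signs of DJ against Ctrl, rice against starch and the difference thus turned. With the block, DJ against Ctrl is the slide 1 comparison of DJ 1 alone with the 3 Ctrl mice. Rice against starch and the difference combine it with the slide 3 comparison of the 3 DJ526 mice with RS 3 alone. Why DJ 1 differs from DJ 2 and DJ 3 was not tested. The core was then negative in 31 of 31 subunits in RS against Ctrl and in 30 in DJ526 against DJ. Neither pair of diets shares a slide, so the block links RS to Ctrl through slide 2 and DJ 1, without RS 3. It links DJ526 to DJ through slide 2 and RS 3, without DJ 1. These values therefore reuse the slide 2 difference of DJ and RS and are no separate check. Of the 21 values of the members with the smallest p per comparison, the block turned the sign of 0 and moved 11 by more than 1.5 times. These were Psmb6 (-0.03) and Psme4 (-0.17) in RS against Ctrl, Psma5 (0.01), Psma4 (0.01) and Psme2 (0.28) in DJ against Ctrl, Psmc2 (-0.48) and Psma5 (-0.33) in DJ526 against Ctrl, Psmg4 (-0.09) in DJ526 against RS, Psmg1 (-0.15) in rice against starch, and Psme4 (0.36) and Psma5 (-0.15) in the difference of effects. Leaving out 1 array in turn gave medians of -0.09 to -0.04 for RS against Ctrl, -0.01 to 0.09 for DJ against Ctrl, -0.13 to -0.02 for DJ526 against Ctrl, -0.16 to -0.06 for DJ526 against DJ, -0.04 to 0.04 for DJ526 against RS, -0.01 to 0.03 for rice against starch and -0.10 to 0.00 for the difference of effects.

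Counts of all probes called in the 5 comparisons of diets, 0, 0, 2, 4 and 3, reached 666, 539, 1527, 1493 and 805, by the Z ratio, and with 1 array left out up to 4, 1, 173 (without RS 3), 107 (without RS 3) and 28 (without RS 3). With the slide as a block, 17 probes were called for the difference of effects and 3 for rice against starch, where the main count was 0. The methods' t-test called 0 members in each comparison and 0, 0, 0, 1 and 0 of all probes. Members at an unadjusted p under 0.05 ranged from 2 (without RS 2) to 14 for RS against Ctrl and 0 to 4 for DJ against Ctrl. The range was 1 to 12 for DJ526 against Ctrl, 3 to 15 for DJ526 against DJ and 1 to 6 for DJ526 against RS. It was 1 to 3 for rice against starch and 1 to 7 for the difference of effects. The 14 came with the slide block, where 10.2% of all probes passed, and the 12 with the methods' t-test, where 12.8% did. Shares of all probes are not given for the other alternatives, so that their counts are not set against the whole array.

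The replicate numbers of the labels did not pair the mice, since 4 of 18 same-numbered pairs correlated above 0.1 (r from -0.27 to 0.26), and 5 of 12 arrays correlated best with an array of their own number. With the replicate block the member medians were the same, 0 members and 0 probes were called in all 7 comparisons, and the members at an unadjusted p under 0.05 came to 5 in RS against Ctrl and 6 in DJ526 against DJ. Fits on only the diets compared, the t-test and the Z ratio apply to the 5 comparisons of 2 diets.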
